A study of Sus scrofa with 6 samples.

Results

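The genes described here make the enzymes and rings that copy DNA: RRM2, TOP2A, PCNA and the minichromosome maintenance genes MCM2 to MCM7. Every probe set that is not a control and whose platform annotation gives exactly 1 of these symbols was taken. Of the 9 genes listed, the annotation held 7, with 12 probe sets among the 10069 that carry 1 symbol, and MCM6 and MCM7 were not analysed here. Of the 12 probe sets, 8 passed a filter on low signal, set without regard to the groups at a mean log2 signal equal to a signal of 48.5. They covered 6 genes, and MCM4 lay below the filter with each of its probe sets.

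The tissue was aortic valve leaflet of adult female pigs. The endothelium had been removed with collagenase, and the leaflets were kept overnight and then in a pressure bioreactor in medium with serum, per the labels' protocols. Leaflets in the normotensive group were under cyclic pressure of 0 to 80 mmHg for 24 h at 1 Hz, and those in the hypertensive group under 0 to 120 mmHg for the same time at the same frequency. Each group had 3 samples, which the labels call biological replicates without naming the animals. The p-values therefore speak of the variation among these 3 and 3 samples, which may be partly technical. From each sample 70 ng of total RNA was amplified, and 10 µg of labelled cRNA was hybridised to an Affymetrix Porcine Genome Array. The comparison asks how transcript levels differ at the higher pressure.

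Before a cell divides it loads a ring of the subunits MCM2 to MCM7 onto its origins, and in S phase that ring becomes the motor of the helicase that unwinds the DNA. PCNA is a sliding clamp that holds the polymerases on the template, the ribonucleotide reductase of RRM1 and RRM2 makes the deoxynucleotides, and topoisomerase IIα, the product of TOP2A, untangles the copied strands and helps to condense chromosomes. Many of these genes are transcribed by E2F factors around the start of S phase, while TOP2A is most abundant later, in G2 and mitosis. Interstitial cells of the adult valve are mostly quiescent and can re-enter the cycle in culture. In a whole leaflet, fewer cycling cells and less RNA in each of them cannot be told apart.

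The arrays of the hypertensive group differed from each other more than those of the normotensive group. Across kept probe sets, correlations between normotensive arrays were 0.952 to 0.978. Hypertensive replicate 2 correlated with the normotensive arrays at 0.946 to 0.957, replicate 3 at 0.885 to 0.904 and replicate 1 at 0.810 to 0.823. The ratio of 3′ to 5′ control probe sets of GAPDH, read as a sign of RNA integrity, was 2.11 to 7.52 on the normotensive and 2.91 to 6.04 on the hypertensive arrays. That of EF1A was 1.298 to 1.65 and 1.35 to 1.55, and that of actin, far higher, 41.1 to 109 and 52.5 to 81.7, so that the groups overlapped in all 3. Marker genes of interstitial cells gave signal in both groups: 7 of the 8 held passed the filter, with S100A4 below it, and their summed signal was 73934 to 75099 on the normotensive and 50996 to 64548 on the hypertensive arrays. Of the endothelial markers, 5 of 9 passed, with VWF, CDH5, KDR and TIE1 below the filter and a summed signal of 2491 to 3049 against 2041 to 3883. Means were lower in 4 of these 5 (median log2 difference -0.37), and the groups did not overlap in ERG, which was lower, and in SELP, which was higher with a log2 difference of 2.76. The markers below the filter mostly went the other way. CDH5 was at 30.3, 12.3 and 40.5 on the normotensive and at 68.4, 115 and 84.9 on the hypertensive arrays (log2 difference 1.82). KDR and TIE1 had higher means (1.87 and 0.57) and VWF a lower one (-0.74), with overlapping groups and every array under the filter level. All 7 kept interstitial markers had lower hypertensive means, with a median log2 difference of -0.34. Of the smooth muscle markers, 2 of 4 passed, with CNN1 and DES below the filter and a summed signal of 2653 to 4898 against 1373 to 4607. Of the leukocyte markers, 6 of 7 passed, with CD3E below the filter and a summed signal of 1679 to 2908 against 723 to 2583. CD163, the brightest of them, was at 1294 to 2261 against 270 to 1794. Means were lower in 3 of these 6 and higher in 3 (median log2 difference -0.07). The groups did not overlap in PTPRC, which was lower (-1.33), and in CORO1A, which was higher (0.79). PTPRC was dim, at 36.9, 52.6 and 15.3 on the hypertensive arrays, 2 of them under the filter level. The part of these markers in the results on replication genes was not tested.

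The replication genes did not share one pattern. RRM2 and TOP2A had much lower signals at hypertensive pressure on each of the 3 arrays, MCM2, MCM3 and MCM5 had lower means with groups that overlapped, and PCNA had nearly equal means with a wide spread. By limma, with Benjamini-Hochberg adjustment over 14399 kept probe sets, 0 of the 6 kept genes passed an adjusted p of 0.05, as did 0 of all kept probe sets, of which 2436 (16.9%) had an unadjusted p under 0.05. At an unadjusted p under 0.05 were 2 of the 6 genes, both lower, and such a p with a lower mean was found in 10.2% of all 5271 kept genes. The groups did not overlap in the same 2 genes, RRM2 and TOP2A, where 12.6% of all kept genes had hypertensive arrays all below the normotensive ones. The median log2 difference of the 6 genes was -0.84, beside -0.07 for all kept genes.

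**Figure D1:**
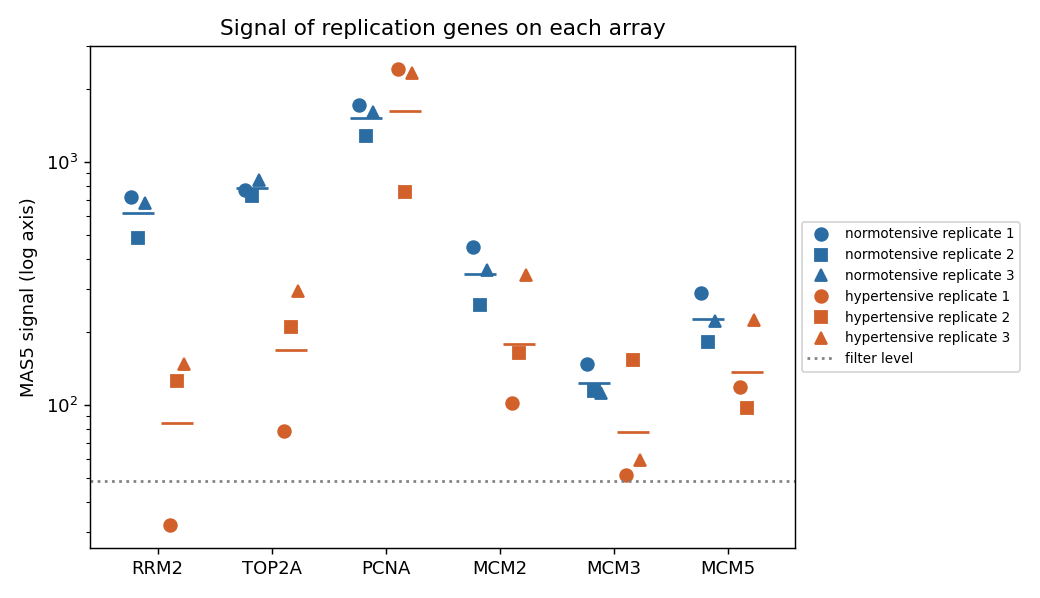
MAS5 signal (log axis) of the 6 replication genes with a probe set above the filter, on each of the 3 normotensive (blue) and 3 hypertensive (orange) arrays; the symbol gives the replicate, the bar the mean of the log2 signals and the dotted line the filter level of 48.5. Levels compare arrays within a gene, not genes with each other. The groups are apart in RRM2 and TOP2A, and in PCNA hypertensive replicate 2 lies below and replicates 1 and 3 above all normotensive arrays.

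RRM2 encodes the small subunit of ribonucleotide reductase, which is made in S phase and destroyed as cells leave mitosis, so that its level follows the cycle. In the normotensive group, replicates 1, 2 and 3 read 717, 488 and 678, and in the hypertensive group they read 32.1, 125 and 147. The highest hypertensive array was thus well below the lowest normotensive one, and hypertensive replicate 1 lay under the filter level. The mean signals were 619 and 84.0, a log2 difference of -2.88 (SE 0.56, 95% interval -4.17 to -1.59, n = 3 and 3). The adjusted p by limma was 0.175. Of the 5271 kept genes, 3 (0.0569%) had a log2 difference as low as that of RRM2 or lower, RRM2 included. The difference leaned on hypertensive replicate 1: the normotensive mean was 7.37 times the hypertensive mean over all arrays and 4.56 times without that replicate.

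The large subunit of the same enzyme, RRM1, which is present through the cycle, was at 2353, 2492 and 2742 on the normotensive arrays and at 1371, 1969 and 1499 on the hypertensive arrays. Its groups did not overlap either, and its log2 difference was -0.66 (SE 0.24; limma, adjusted p = 0.269). RRM2B, the small subunit that p53 induces for repair outside S phase, was at 660, 586 and 785 and at 277, 898 and 416, so that its groups overlapped. The log2 ratio of RRM2 to RRM1 on the same array had a mean of -2.03 ± 0.32 (SD, n = 3) in the normotensive and -4.25 ± 1.06 in the hypertensive group. The hypertensive arrays, at -5.42, -3.97 and -3.35, all lay below the normotensive ones, at -1.71, -2.35 and -2.02. The log2 ratio differed by -2.22 between the groups, or by -1.63 without hypertensive replicate 1. An exact 2-sided permutation test of 3 against 3 arrays gave p = 0.1, the smallest it can give. The pair was chosen after the values were seen, with RRM2 already separate between the groups, so this p is no independent support.

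TOP2A was at 771, 728 and 846 on normotensive replicates 1 to 3 and at 77.9, 209 and 295 on the hypertensive ones. The normotensive arrays lay close together, and the hypertensive ones were all lower, with replicate 1 lowest, as in RRM2. The mean signals were 780 and 169, a log2 difference of -2.21 (SE 0.47, 95% interval -3.30 to -1.12), with an adjusted p by limma of 0.206. Among the kept genes, 0.74% had a log2 difference as low as that of TOP2A or lower. The normotensive mean was 4.62 times the hypertensive mean, with a range over arrays left out in turn from 3.14 (hypertensive replicate 1 removed) to 6.12 (hypertensive replicate 3 removed).

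TOP2B, the isoform that resting cells also use, had no lower mean. It was at 1993, 2238 and 2037 on the normotensive and at 3107, 2195 and 2342 on the hypertensive arrays, with overlapping groups and a log2 difference of 0.27 (SE 0.23; limma, adjusted p = 0.535). At normotensive pressure the log2 ratio of TOP2A to TOP2B was -1.37, -1.62 and -1.27. At hypertensive pressure it was -5.32, -3.39 and -2.99, all lower. The difference was -2.48 (exact permutation p = 0.1, the smallest 3 against 3 arrays allow), and -1.77 without hypertensive replicate 1. This pair, too, was chosen after the values were seen, with TOP2A already separate between the groups.

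PCNA, the sliding clamp, which also serves DNA repair, was at 1727, 1284 and 1610 on the normotensive arrays and at 2428, 758 and 2339 on hypertensive replicates 1, 2 and 3. Hypertensive replicates 1 and 3 lay above every normotensive array and replicate 2 below every one. The mean signals were 1528 and 1626, and the log2 difference of 0.09 (SE 0.45; limma, adjusted p = 0.928) had a 95% interval of -0.94 to 1.12. Its sign changed when hypertensive replicate 1 (-0.20), hypertensive replicate 3 (-0.17) or normotensive replicate 2 (-0.04) was left out. Without hypertensive replicate 2 it was 0.64, with the groups apart, and did not pass (limma, adjusted p = 0.0704).

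**Figure D2:**
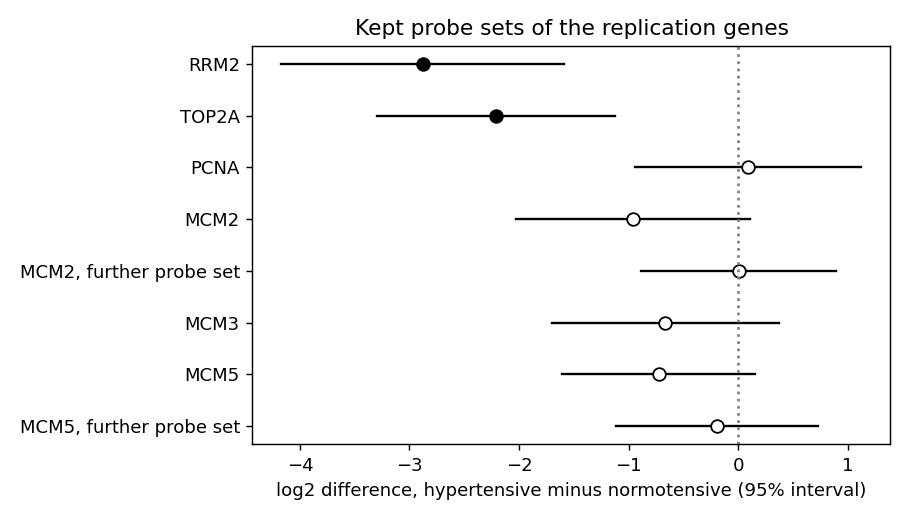
Log2 difference in signal, hypertensive minus normotensive, for the 8 probe sets of the replication genes above the filter, with the 95% interval of the limma fit on 3 arrays per group; filled points mark groups that do not overlap. The intervals of RRM2 and TOP2A lie below 0, and the other 6 include 0.

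Of the helicase subunits, MCM2, MCM3 and MCM5 had a probe set above the filter, each with a lower mean at hypertensive pressure and each with a different order of arrays. MCM2 was at 450, 259 and 361 on the normotensive and at 102, 163 and 345 on the hypertensive arrays. Replicates 1 and 2 of the hypertensive group lay below all normotensive arrays and replicate 3 inside their range. The log2 difference was -0.96 (SE 0.46, 95% interval -2.02 to 0.11; limma, adjusted p = 0.322).

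MCM3 was at 147, 114 and 112 on the normotensive and at 51.5, 153 and 59.5 on the hypertensive arrays. Here hypertensive replicate 2 was the highest of all 6 arrays, while replicates 1 and 3 lay below the normotensive range. The log2 difference was -0.67 (SE 0.45, 95% interval -1.70 to 0.37; limma, adjusted p = 0.439). Without hypertensive replicate 2 it was -1.16 and passed (limma, adjusted p = 0.0373).

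MCM5 was at 289, 183 and 222 on the normotensive and at 119, 97.1 and 223 on the hypertensive arrays. As in MCM2, replicate 3 of the hypertensive group lay inside the normotensive range and the other two below it. The log2 difference was -0.73 (SE 0.38, 95% interval -1.61 to 0.15; limma, adjusted p = 0.351).

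Further probe sets of MCM2 and MCM5 did not repeat the differences of the brightest ones. A second kept probe set of MCM2, with means of 56.4 and 56.6, close to the filter level, had a log2 difference of 0.00 (SE 0.39). Another, below the filter, was at 6.81, 25.4 and 21.1 on the normotensive and at 65.6, 58.2 and 45.7 on the hypertensive arrays, the opposite direction. A second kept probe set of MCM5 was at 211, 179 and 155 and at 189, 89.2 and 232, with a log2 difference of -0.19 (SE 0.40), and another was at 2.30 to 3.87 on all arrays. The direction of MCM2 therefore depended on the probe set.

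The probe sets of MCM4 were too dim to be compared. The brighter one was at 19.4 to 35.5 on the normotensive and 5.66 to 39.4 on the hypertensive arrays, and the other at 11.7 to 15.5 and 4.18 to 20.0. Every array was below the filter level in each of them.

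Without hypertensive replicate 2, the array nearest to the normotensive group, 3 of the 6 kept genes passed the adjusted threshold, all lower: RRM2 (log2 difference -3.17; limma, adjusted p = 0.00996), TOP2A (-2.36; limma, adjusted p = 0.0163) and MCM3. In that fit 15.7% of all kept genes passed as lower and 10.3% as higher. In RRM2 and TOP2A hypertensive replicate 2 itself lay at -2.30 and -1.90 from the normotensive mean on the log2 scale. It stood between replicate 1, at -4.27 and -3.32, and replicate 3, at -2.07 and -1.40. In MCM3 it was the only hypertensive array above the normotensive mean, and in PCNA the only one below it.

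Ratios to PCNA on the same array set the members against each other. In 7 ratios computed in all, chosen after the values were seen, Benjamini-Hochberg adjusted p-values were 0.14 or more. For RRM2 to PCNA the log2 ratio was -1.27, -1.40 and -1.25 at normotensive pressure and -6.24, -2.59 and -3.99 at hypertensive pressure. Its normotensive SD was 0.08, and the group means differed by -2.97, or by -1.99 without hypertensive replicate 1 and -3.81 without hypertensive replicate 2. That of TOP2A to PCNA differed by -2.30 and that of MCM5 to PCNA by -0.82, each with all hypertensive arrays below all normotensive ones (exact permutation p = 0.1 for each of the 3, the smallest possible). The ratios of MCM2 and MCM3 to PCNA differed by -1.05 and -0.76, with overlapping groups (exact permutation p = 0.2 and 0.4). Single arrays moved the ratios of RRM2, TOP2A, MCM2 and MCM3 to PCNA by over 1.5 times in fold. That of MCM5 to PCNA moved less, with differences from -1.12 to -0.43 over all settings. Without hypertensive replicate 1 the differences were -1.45 for TOP2A, -0.35 for MCM2 and -0.17 for MCM3, and without hypertensive replicate 2 they were -3.004 for TOP2A and -1.80 for MCM3.

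**Figure D3:**
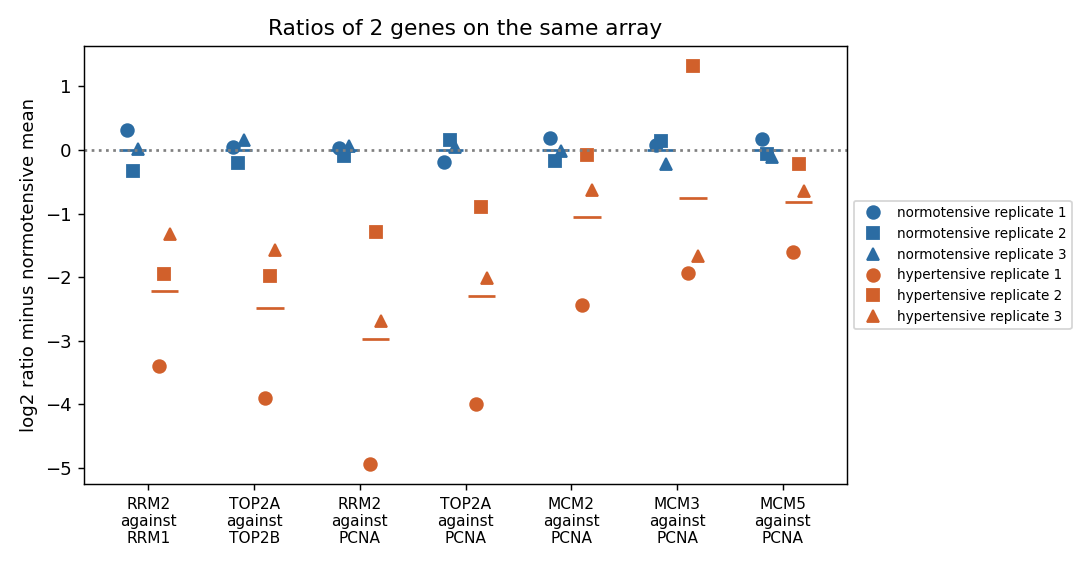
Log2 ratio of 2 genes on the same array, less the normotensive mean of that ratio, for 7 gene pairs on 3 normotensive (blue) and 3 hypertensive (orange) arrays; symbols give the replicate and bars the group mean. RRM2 against RRM1 and TOP2A against TOP2B lie lower on all hypertensive arrays, while MCM3 against PCNA is highest on hypertensive replicate 2.

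The rest of the pathway was read from 10 lists of genes grouped by role, 7 of DNA replication and 3 of the cell cycle around it. Of 148 genes listed the annotation held 79, and 69 passed the filter. Their means were lower in 49 and higher in 20, beside 55% and 45% of all kept genes, and 0 passed the adjusted threshold (limma, adjusted p = 0.164 to 0.978). At an unadjusted p under 0.05 were 21 lower and 2 higher genes of the 69; over all kept genes these shares were 10.2% and 6.85%. The groups did not overlap in 22 lower and 2 higher genes, where 12.6% and 9.28% of all kept genes were so. The 7 replication lists held 40 of the 69 genes, of which 11 were lower and 1 higher without overlap, with a median log2 difference of -0.43. The 3 cell cycle lists held 29, of which 11 were lower, all in G2 and mitosis, and 1 higher, with a median of -0.71. Without hypertensive replicate 2 the counts over all 10 lists were 35 and 12, and the shares over all kept genes 32.4% and 24%.

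Among the genes that license origins, 4 of 6 kept genes had lower means, with a median log2 difference of -0.47, and 1 had groups that did not overlap. That gene was ORC3, a subunit of the origin recognition complex, at 400, 459 and 450 on the normotensive and 242, 282 and 363 on the hypertensive arrays (log2 difference -0.58). ORC4 and ORC1, of the same complex, had log2 differences of -0.99 and -0.81 with overlapping groups, and geminin (GMNN), which blocks relicensing, one of -0.37.

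The genes that fire origins and complete the helicase were split, with 3 of 6 lower and 3 higher. CDC45, which joins the MCM ring to form the active helicase, was at 424, 278 and 317 on the normotensive and at 69.2, 166 and 150 on the hypertensive arrays. All hypertensive arrays were lower, and the log2 difference was -1.48 (SE 0.40; limma, adjusted p = 0.237), with -0.87 in a further probe set. TIPIN, which protects stalled forks, went the other way, at 548, 549 and 583 and at 2131, 566 and 1469. Its log2 difference was 1.11, and hypertensive replicate 2 lay inside the normotensive range. CLSPN, the fork mediator claspin, had a log2 difference of -0.79, and DBF4, the activator of the kinase that fires origins, one of 0.63, each with overlapping groups.

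Polymerase subunits had lower means in 5 of 8 kept genes (median log2 difference -0.46). POLD2, a subunit of the lagging strand polymerase, was at 143, 129 and 73.0 against 52.1, 62.1 and 50.0, with all hypertensive arrays lower and close to the filter level (log2 difference -1.02). POLE2, of the leading strand polymerase, had a log2 difference of -1.58 and overlapping groups, and a further probe set one of -2.03. POLE3, a histone-fold subunit that also serves chromatin remodelling, was at 1893, 1943 and 1768 and at 3696, 1796 and 3759. As in PCNA, hypertensive replicates 1 and 3 were high and replicate 2 was not, and the log2 difference was 0.65. POLD3 had a log2 difference of 0.87 with overlapping groups.

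Among clamp loader, single-strand binding and Okazaki fragment genes, 9 of 11 kept genes had lower means (median log2 difference -0.30) and 4 had groups that did not overlap, all lower. RPA2 and RPA3, subunits of the single-strand binding protein, had log2 differences of -1.05 each. RPA3 was at 2756, 3325 and 2743 on the normotensive and 843, 2412 and 1397 on the hypertensive arrays, so that replicate 2 was nearest to the normotensive level. DNA ligase I (LIG1), which seals Okazaki fragments, had a log2 difference of -1.02, and RNASEH2C, of the enzyme that removes ribonucleotides, one of -1.27 with overlapping groups. RNASEH2B, of the same enzyme, had a higher mean (log2 difference 1.59), also with overlapping groups. It was at 880, 858 and 1180 on the normotensive and at 5853, 792 and 5190 on the hypertensive arrays.

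In nucleotide supply, 4 of 6 kept genes had lower means (median -0.59). NME1, a nucleoside diphosphate kinase, was at 1434, 1583 and 1350 on the normotensive and at 901, 796 and 789 on the hypertensive arrays, evenly lower on all 3 (log2 difference -0.81, SE 0.24; limma, adjusted p = 0.248). IMPDH2, of guanine nucleotide synthesis, had a log2 difference of -0.85 with overlapping groups. SAMHD1, which breaks deoxynucleotides down and is induced by interferon in some cells, was higher on all hypertensive arrays, at 2698, 2938 and 3097 against 8180, 4552 and 3703 (log2 difference 0.83, SE 0.30; limma, adjusted p = 0.269). Of the hypertensive arrays, replicate 1 was highest in SAMHD1 and lowest in RRM1 and RRM2.

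Of the genes of chromatin assembly behind the fork, DNMT1, the maintenance DNA methyltransferase, was at 2590, 2265 and 2863 on the normotensive and at 589, 1752 and 1269 on the hypertensive arrays, all lower (log2 difference -1.23). Its 3 further kept probe sets ran from -1.64 to 0.03. ASF1A, a histone chaperone, had a log2 difference of -0.31 with overlapping groups.

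The regulators of entry into S phase were mixed, and in 0 of 6 kept genes were the groups apart. RBL2, the pocket protein p130 that represses E2F targets in resting cells, was at 4235, 4237 and 4697 on the normotensive arrays and at 287, 4957 and 1382 on the hypertensive arrays. Its log2 difference of -1.81 (SE 0.85) thus joins an array at the normotensive level with 2 far below it. CCND2, a G1 cyclin, was likewise above the normotensive range on replicate 2 and below it on the other two, at 1499, 5619 and 1078 on the hypertensive arrays and 2987 to 5454 on the normotensive ones. MYC and E2F3, activators of S phase entry, had log2 differences of 0.79 and 0.57, with replicates 1 and 3 above all normotensive arrays and replicate 2 not.

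Of the inhibitors of the cycle, 4 of 8 kept genes had lower and 4 higher means, with a median log2 difference of -0.11. GADD45G was higher on all 3 hypertensive arrays, at 262, 262 and 368 against 215, 161 and 203 (log2 difference 0.61; limma, adjusted p = 0.315). GADD45A, a stress gene, was at 227 on hypertensive replicate 1, and at 2230 and 1637 on replicates 2 and 3, beside 1443 to 1884 on the normotensive arrays. CDKN2D and BTG1 had log2 differences of -0.71 and 0.22 with overlapping groups.

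**Figure D4:**
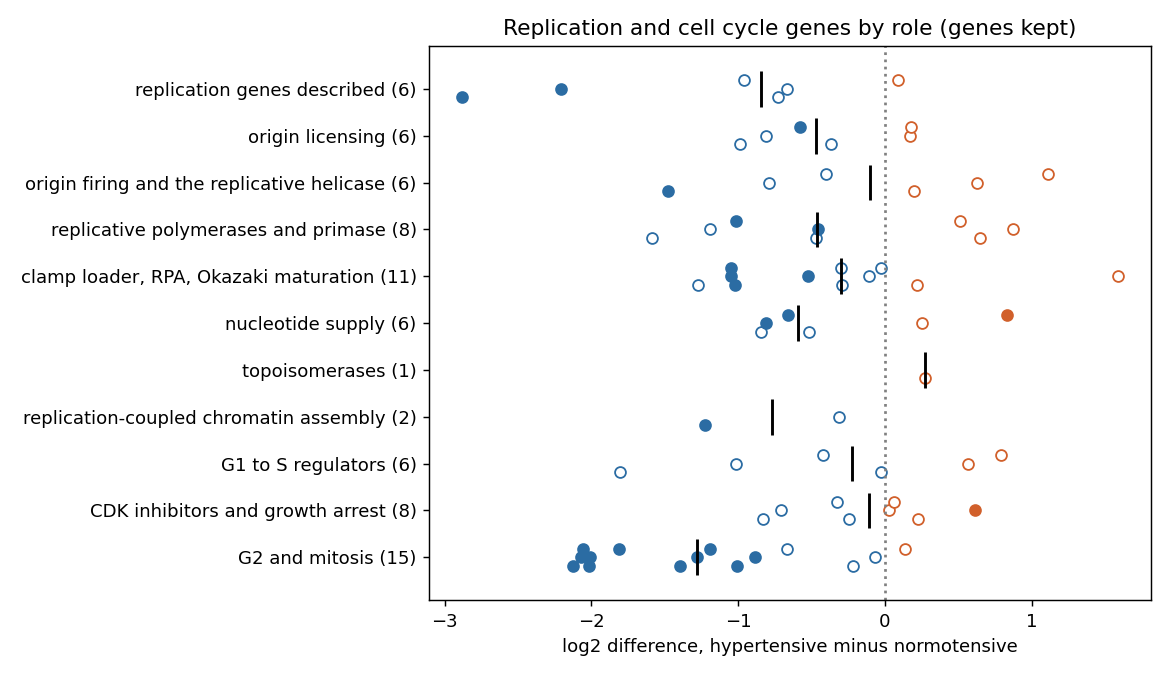
Log2 difference in signal, hypertensive minus normotensive, of each replication and cell cycle gene above the filter, by role with the number of genes in brackets; filled points mark groups that do not overlap (3 arrays each), blue is lower and orange higher, and the bar is the median. The G2 and mitosis genes have the lowest median, -1.28. Every row holds genes on each side of 0 except topoisomerases (1 gene, higher) and replication-coupled chromatin assembly (2 genes, lower).

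The genes of G2 and mitosis, with which TOP2A peaks, had lower means in 14 of 15 kept genes, a median log2 difference of -1.28 and 11 genes with hypertensive arrays all below the normotensive ones. Over all kept genes, 55% had lower means and 12.6% were lower without overlap. With the filter at the 60th percentile of signal, which tests fewer of these genes, the count of 11 was 3. Some of the 11 were dim at hypertensive pressure. CDC20 was under the filter level of 48.5 on all 3 hypertensive arrays, at 36.8, 31.4 and 48.4. CCNB2, AURKB and BIRC5 were under it on hypertensive replicate 1, at 26.2, 7.45 and 7.90. The hypertensive means of CDC20, AURKB and BIRC5 were 38.2, 34.4 and 39.7, so these genes passed the filter through their normotensive signals. The kinetochore gene NDC80 was at 288, 237 and 273 on the normotensive and 36.9, 86.2 and 70.5 on the hypertensive arrays. The mitotic kinase NEK2 was at 222, 229 and 264 and at 44.3, 88.4 and 79.1. NDC80 and NEK2 were each under the filter level on hypertensive replicate 1. Cyclin B1 (CCNB1) was at 684, 836 and 635 and 94.8, 176 and 330, in the same order over the hypertensive arrays as RRM2 and TOP2A. STMN1, a microtubule regulator, had a log2 difference of -1.40. On hypertensive replicates 1, 2 and 3 the median of these 15 genes lay at -1.64, -0.97 and -0.85 from the normotensive mean on the log2 scale, so that it was low on every hypertensive array. The medians of the 6 replication genes lay at -1.51, -1.16 and -0.54, and those of the 8 polymerase genes at -0.94, 0.04 and -0.37. Whether these lists differ from each other was not tested.

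The genes most like the mean of the 6 replication genes over the 6 arrays, among 5265 others, were TRIM44, CDKN3, FSTL3, PAPSS2, RDH14 and FRA10AC1, with Pearson correlations of 0.985 to 0.9995. These are descriptions over 6 arrays in 2 groups. CDKN3, a phosphatase of cyclin-dependent kinases, was at 628, 489 and 512 on the normotensive and 198, 267 and 370 on the hypertensive arrays, all lower. TRIM44 had a much smaller difference, -0.45, in the same order of arrays. The most opposed were CEBPB, a transcription factor of inflammation, at -0.993, DDX60, an interferon-induced helicase, at -0.991 and RFTN1 at -0.991. CEBPB was at 2688, 3302 and 2590 on the normotensive and at 9914, 6385 and 4789 on the hypertensive arrays.

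The control genes GAPDH and ACTB had log2 differences of 0.11 (SE 0.15) and 0.32 (SE 0.24), with overlapping groups.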

How the data were processed

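GCOS and MAS5 are named in the submitters' processing notes, with versions not given in the sources used here. What the authors deposited is 1 linear signal intensity per probe set and array. The 2% trimmed mean was 500.11 to 500.131 on the 6 arrays, so each had been scaled to a common level. Of 24123 probe sets, 124 controls were left out. Symbols came from the platform annotation. The log2 of each intensity was used, without a pseudocount. Probe sets at or above the 40th percentile of the mean log2 intensity (14399) were tested with limma 3.58.1 in R 4.3.3 (lmFit, eBayes with trend, 2-sided). The brightest kept probe set stood for a gene, and group means are means of log2 signals. The fit was tested on simulated data. Precision is limited by the small number of arrays.

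The rule for named genes took the listed replication genes, from each list up to 4 kept genes of smallest p, the 6 genes most like and the 3 least like the replication genes' mean, GAPDH and ACTB. RRM2B, RNASEH2B, CDC20, CCNB2, AURKB, BIRC5, the marker genes and the genes below the filter were named outside it, after their values were seen. The members and lists were chosen with earlier results of these data known. Of 35 genes named from lists by the rule, 7 had further kept probe sets, which ran the same way in 6. Ratios of 2 genes were tested with an exact permutation test (SciPy 1.17.1). No sequences or genome positions were used here, so the promoter motifs named in the plan were not searched.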

Additional observations from a re-analysis of the deposited data

Results flagged for a closer look

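A probe set of MCM2 that lay below the filter, and so was left out of the main comparison, had higher signal on all 3 hypertensive arrays than on any normotensive array. The ratio of its means was 3.63, but it rests on dim signals: the normotensive arrays, at 6.81 to 25.4, and 1 hypertensive array, at 45.7, were under the filter level of 48.5. In the fit with no filter it did not pass (limma, adjusted p = 0.334, unadjusted 0.0162). The brightest MCM2 probe set had a lower hypertensive mean.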

How the results depend on the processing

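The log2 differences of RRM2, TOP2A, MCM2, MCM3 and MCM5 kept their sign in every setting in which they were computed: a median shift, quantile normalization, pseudocounts of 16 and 64, no filter on low signal, the 60th percentile as filter (which removed MCM3), no intensity trend, a robust trend, array weights, the replicate number as a block, the mean of a gene's kept probe sets, and each array left out. RRM2 ran from -3.29 to -2.13 and TOP2A from -2.61 to -1.62. With array weights, RRM2, TOP2A and MCM3 passed (limma, adjusted p = 0.000823, 0.00196 and 0.00922). So did 5639 of the 14399 kept probe sets in all, so passing was common in that fit. Its weights were uneven. Normotensive replicate 1 weighed 6.96, replicate 2 0.931 and replicate 3 1.15. Hypertensive replicate 3 weighed 2.38, replicate 1 0.289 and replicate 2 0.195. The weighted fit thus leaned mostly on normotensive replicate 1 and hypertensive replicate 3. With the block, 0 probe sets passed and RRM2 had an adjusted p of 0.133 by limma; deviations of same-numbered samples correlated at 0.06, 0.07 and 0.23, each above every differently numbered pair (-0.14 to 0.04) but too weak in 2 pairs to establish a pairing. When each array was left out, probe sets past the threshold ran from 0 to 3505 (without hypertensive replicate 2). Member genes with separate groups ran from 2 to 4, lower pathway genes from 22 to 35 and higher ones from 3 to 12. Fewer arrays make separate groups easier to reach. Without hypertensive replicate 2, RRM2, TOP2A and MCM3 were separate as lower and PCNA as higher. In that fit 32.4% of all kept genes were separate as lower and 24% as higher. The member count was also 4 without hypertensive replicate 3. Among the fits with an array left out, shares over all kept genes were computed only without hypertensive replicate 2. The other counts from such fits therefore cannot be read as results about these genes. PCNA was 0.64 without hypertensive replicate 2, and reversed to -0.20 and -0.17 without hypertensive replicates 1 and 3 and to -0.04 without normotensive replicate 2. With the 60th percentile filter, 12 lower pathway genes had separate groups, since fewer were tested, and higher ones numbered 4 with quantile normalization and 5 with a median shift; the cause was not tested.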
